A study of Mus musculus with 2 samples.

Results

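The regulators of sterol synthesis examined here are 8 genes: Srebf1 and Srebf2, which encode the sterol regulatory element binding proteins (SREBPs), Scap, Insig1, Insig2, Mbtps1, Mbtps2 and Mylip. They were found by gene symbol, current or older, in the annotation of a whole-genome mouse array, which named them on 15 of 45037 probe sets. Of these, 14 read 1 of the 8 genes alone and 1 was shared by Mbtps2 and Yy2. One group was fed EPA&DHA, a semisynthetic high-fat diet (20% fat by weight) in which a concentrate of marine n-3 fatty acids, 6% EPA and 51% DHA, took the place of 44% of the lipids. In the control diet, all of the fat was flaxseed oil, a source of the plant n-3 fatty acid ALA. All mice were male C57BL/6J, an inbred strain, aged 4 months, and were fed for 4 weeks. RNA from small intestine was combined into 1 pool per diet, from 11 of 12 EPA&DHA mice and 10 of 12 control mice, and each pool was hybridized to 1 array. The paper describes scraped epithelial cells, whereas the labels name the complete small intestine.

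SREBPs are transcription factors made as precursors anchored in the membrane of the endoplasmic reticulum (ER). When sterols are scarce, the escort protein SCAP carries them to the Golgi in COPII vesicles, where site-1 protease (Mbtps1) and then site-2 protease (Mbtps2) cut the precursor and free a fragment that enters the nucleus and switches on genes of sterol and fatty acid synthesis. When sterols are plentiful, INSIG proteins hold SCAP in the ER. MYLIP, also called IDOL, is a ubiquitin ligase induced by the oxysterol receptor LXR, and it marks the LDL receptor for breakdown. SREBP-2 acts mainly on genes of cholesterol synthesis and SREBP-1 mainly on those of fatty acid synthesis. In rodent liver, polyunsaturated fatty acids are known to lower Srebf1 mRNA and the amount of nuclear SREBP-1. Srebf2 and Insig1 are themselves known targets of SREBPs, so the system feeds back on its own parts.

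Promoter sequences of the members were taken from RefSeq (GRCm38.p6) as windows of 300 bases, 250 before the annotated start and 50 from it on, and all 8 genes had at least 1 window. The windows below are shown for their motifs: the first 3 come from the members in which a sterol regulatory element core or an E-box was found, and the last, from Mbtps2, held none of the motifs searched. No window of Srebf1, Insig2, Mbtps1 or Mylip held an exact match to either of these 2 motifs. Srebf1 and Insig2 are among the members with lower signals on EPA&DHA. Variant forms of the motifs were not searched, so these genes may still hold such elements. Capitals mark matches, on either strand, to the core of the sterol regulatory element (TCACCCCA), an E-box (CACGTG), the CCAAT box (CCAAT, or ATTGG on the other strand) and the GC box (GGGCGG or CCGCCC). The Srebf2 window lies at chr15:82147019-82147318 (+ strand), that of Insig1 at chr5:28071162-28071461 (+ strand), that of Scap, for the downstream of its annotated starts, at chr9:110333106-110333405 (+ strand) and that of Mbtps2 at chrX:157598666-157598965 (- strand).
Srebf2 promoter: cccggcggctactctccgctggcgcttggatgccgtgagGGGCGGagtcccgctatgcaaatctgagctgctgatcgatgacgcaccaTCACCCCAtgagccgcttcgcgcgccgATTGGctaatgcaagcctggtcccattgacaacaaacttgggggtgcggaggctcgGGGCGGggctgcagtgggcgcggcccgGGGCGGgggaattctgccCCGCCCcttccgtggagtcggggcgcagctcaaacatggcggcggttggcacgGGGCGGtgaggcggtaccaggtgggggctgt
Insig1 promoter: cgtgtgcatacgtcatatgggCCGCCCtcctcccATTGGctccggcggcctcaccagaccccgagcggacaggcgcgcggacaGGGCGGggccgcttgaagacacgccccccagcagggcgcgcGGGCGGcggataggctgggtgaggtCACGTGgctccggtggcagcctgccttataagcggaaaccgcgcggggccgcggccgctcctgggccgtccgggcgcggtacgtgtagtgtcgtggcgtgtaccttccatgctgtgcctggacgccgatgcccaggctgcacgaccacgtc
Scap promoter: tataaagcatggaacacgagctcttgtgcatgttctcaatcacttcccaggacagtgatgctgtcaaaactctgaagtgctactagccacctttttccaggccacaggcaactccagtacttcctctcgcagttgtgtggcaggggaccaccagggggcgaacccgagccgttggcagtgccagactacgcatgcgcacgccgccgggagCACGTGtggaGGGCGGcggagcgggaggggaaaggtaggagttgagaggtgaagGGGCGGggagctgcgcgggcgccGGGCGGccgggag
Mbtps2 promoter: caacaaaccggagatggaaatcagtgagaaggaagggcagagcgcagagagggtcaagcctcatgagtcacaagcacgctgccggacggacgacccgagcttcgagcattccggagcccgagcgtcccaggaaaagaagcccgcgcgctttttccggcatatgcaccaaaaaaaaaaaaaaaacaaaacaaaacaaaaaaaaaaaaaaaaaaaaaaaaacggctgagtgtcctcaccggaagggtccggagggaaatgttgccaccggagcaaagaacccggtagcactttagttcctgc
Among the members' windows, an exact match to the core of the sterol regulatory element was found only in that of Srebf2. It stood 162 bases before the start, with a reverse CCAAT box at 135 bases. The core occurred in 1.56% of all 32851 promoter windows. The Insig1 window held an E-box 101 bases before the start and the Scap window 1 at 40 bases, and an E-box stood in 7.15% of all windows. The CCAAT and GC boxes were common, in 37.4% and 35.7% of windows. The Srebf2 window held 5 GC boxes and that of Mylip 3 CCAAT boxes and 1 GC box, while none of the motifs was found in the Mbtps2 window. These matches are descriptions of sequence, and binding was not measured.

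The Srebf2 gene spans chr15:82147269-82205379, and the hairpin of miR-33 lies inside these bounds on the same strand (chr15:82198122-82198190). miR-33 is known to repress the cholesterol exporter Abca1. Its mature 5p form is shown, with the seed in capitals, because it is encoded within the member whose signal is described next. It was not measured here.
mmu-miR-33-5p: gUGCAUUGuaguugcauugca

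Srebf1, Srebf2, Scap, Insig1 and Insig2 all had lower signals on EPA&DHA on their brightest probe set, by 1.35-fold to 1.63-fold, whereas Mbtps1, Mbtps2 and Mylip lay within 1.11-fold of the control. A gene is counted here as past 1.5-fold when its signals on both arrays differ by that factor or more. Scap and Srebf2 were the 2 of 8 members past 1.5-fold in the lower direction, and 0 members were so in the higher one. Over the 11756 genes measured, 8.02% were past 1.5-fold lower and 6.24% past 1.5-fold higher. Among the 3212 genes whose mean signal lay in the members' range, 527.4 to 1953.3, that share was 2.33% for lower. Of the 13 kept probe sets that read a member alone, 4 were past 1.5-fold lower and 1 higher, against 9.01% and 8.11% of all kept probe sets, while 10 had a ratio below 0 and 3 above, against 54.4% and 45.6%. As a log2 ratio of EPA&DHA over control, the median was -0.44 for the members and -0.05 for all genes, and 7 members had a ratio below 0 and 1 above, as did 56.5% and 43.5% of all genes. With 1 array per diet there were no replicates, so no test, standard error or p-value could be given. Each log2 ratio is set instead beside the local SD, a robust estimate of spread taken from the 500 kept probe sets nearest in mean signal. It is their median absolute deviation, scaled to an SD, and holds both technical scatter and any effect of the diet. Over the 5350 genes with more than 1 kept probe set, log2 ratios of the brightest and next differed with an SD of 0.531 (robust 0.405). In 42.5% of these genes the 2 had opposite signs. Srebf1, Scap, Insig1, Mbtps2 and Mylip each had 1 kept probe set of their own.

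**Figure D1:**
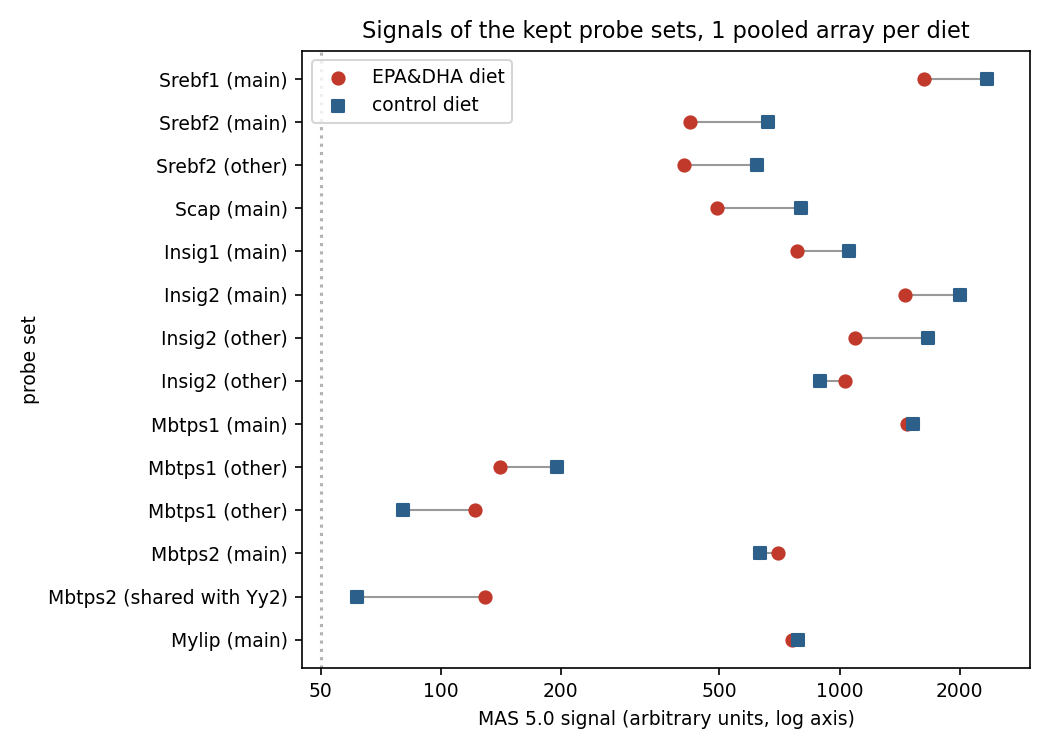
MAS 5.0 signal (x axis, log scale, arbitrary units) of each kept probe set of the 8 genes on the EPA&DHA array (red circles) and the control array (blue squares), 1 pooled array per diet. The EPA&DHA signal lies left of the control signal for both probe sets of Srebf2 (421 and 407 against 660 and 620) and nearly coincides with it for Mylip (759 against 789).

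The transcription factor genes came first. Srebf1 (chr11:60199084-60224186) had a signal of 1631 on EPA&DHA and 2340 on the control diet on its only probe set, a log2 ratio of -0.52 with a local SD of 0.25. By its own criteria, the paper reported Srebf1 as not differentially expressed on these arrays. Its discussion adds that, in a set of regulators that included the SREBPs, the receptor PPARα alone was differentially expressed. Srebf2 is not named there. The annotation gives Srebf1 several starts, which yield the SREBP-1a and SREBP-1c forms, and the array signal was not split between them here. Srebf2, whose position is given above, was read by a pair of probe sets designed from the same sequence record. The brighter had a signal of 421 on EPA&DHA and 660 on the control diet, 1.57-fold lower, with a log2 ratio of -0.65 and a local SD of 0.29. The other had 407 on EPA&DHA and 620 on the control diet, 1.52-fold lower. Both probe sets of Srebf2 were thus past 1.5-fold in the same direction, although they are not independent measurements of the diet.

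Scap, whose product escorts SREBPs out of the ER, had the lowest ratio of the members. Its signal was 492 on EPA&DHA and 802 on the control diet, 1.63-fold lower, a log2 ratio of -0.71 with a local SD of 0.28. The gene lies at chr9:110333288-110384949. Its other probe set gave 4.44 on EPA&DHA and 18.7 on the control diet, far under the mean signal of 50 required here, and its ratio was not used.

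Both INSIG genes, whose products retain SCAP, had lower signals on their brightest probe set, but neither passed 1.5-fold there. Insig1 (chr5:28071412-28078662) had a signal of 783 on EPA&DHA and 1057 on the control diet, 1.35-fold lower, with a log2 ratio of -0.43 and a local SD of 0.26. For Insig2 (chr1:121304353-121332662) the brightest probe set had 1458 on EPA&DHA and 2002 on the control diet, a log2 ratio of -0.46. The next had 1093 on EPA&DHA and 1666 on the control diet, 1.52-fold lower. The third, of the type that Affymetrix marks as reading several transcripts of a gene, went the other way, with 1034 on EPA&DHA and 892 on the control diet, 1.16-fold higher. The 3 probe sets of Insig2 derive from 1 sequence record and had a mean log2 ratio of -0.28. The direction of Insig2 therefore depended on the probe set, and that of Insig1 rested on a single one.

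The proteases lay near the control. Mbtps1 (chr8:119508151-119558864), which makes the first cut, had a signal of 1478 on EPA&DHA and 1529 on the control diet, a log2 ratio of -0.05 with a local SD of 0.25. Its dimmer probe sets disagreed, with 140 on EPA&DHA and 196 on the control diet for one and 122 on EPA&DHA and 80.2 on the control diet for the other. These log2 ratios, -0.48 and 0.61, compare with local SDs of 0.43 and 0.55 at this lower signal, and the mean over the 3 probe sets was 0.03. Mbtps2 (chrX:157547822-157598715), which makes the second cut, had a signal of 703 on EPA&DHA and 633 on the control diet, 1.11-fold higher, with a log2 ratio of 0.15 and a local SD of 0.27. The probe set shared with Yy2, a transcription factor gene that lies within the bounds of Mbtps2, had 129 on EPA&DHA and 61.7 on the control diet, a log2 ratio of 1.07 with a local SD of 0.60, and cannot be assigned to either gene.

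Mylip (chr13:45389742-45411940), the ligase that controls the LDL receptor, had a signal of 759 on EPA&DHA and 789 on the control diet. Its log2 ratio was -0.05 with a local SD of 0.26, on a single probe set. Among the members, 5 lay more than 1 local SD below 0, of which Scap, Srebf2 and Srebf1 lay more than 2 local SDs below, and 3 lay within 1 local SD of 0. Of all genes measured, 19.1% lay more than 1 local SD below 0, 3.51% more than 2 below and 67.1% within 1.

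**Figure D2:**
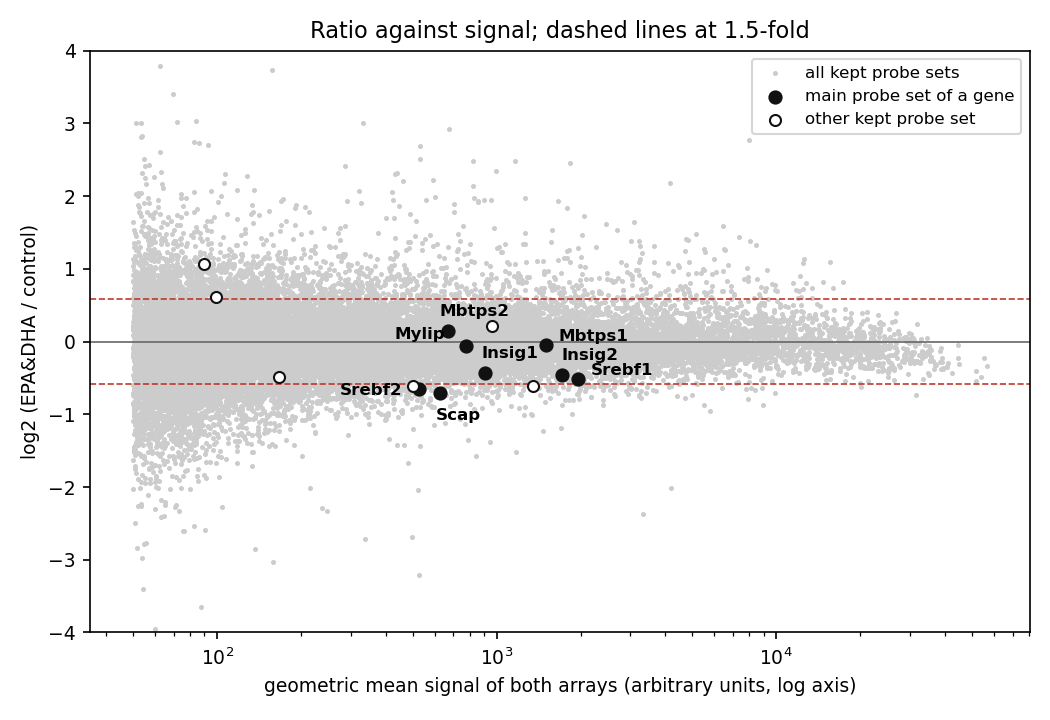
Log2 ratio of EPA&DHA over control (y axis) against geometric mean signal of both arrays (x axis, log scale) for all 24461 kept probe sets (grey), with the main probe set of each member in black and other kept probe sets of members as open circles. Dashed lines stand at 1.5-fold, and Scap (-0.71) and Srebf2 (-0.65) lie below the lower one, in a range of signal where the local SD is 0.28 and 0.29.

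Around these members, genes were grouped by their role, each list written from general knowledge. On EPA&DHA the enzymes of cholesterol synthesis, controlled mainly by SREBP-2, had lower signals than on the control diet. Among the 17 measured, 10 were lower past 1.5-fold and 0 higher, with a median log2 ratio of -0.78. Sqle, the squalene epoxidase, had 957 on EPA&DHA and 2241 on the control diet. Hmgcs1, which forms the HMG-CoA used for mevalonate, had 6655 on EPA&DHA and 12153 on the control diet, and its 5 kept probe sets had log2 ratios from -0.87 to -0.47. Log2 ratios of -1.18, -1.14 and -1.01 belonged to Fdps, the farnesyl diphosphate synthase, Lss, the lanosterol synthase, and Cyp51, the lanosterol demethylase, although a dimmer probe set of Lss stood at -0.05. Tm7sf2, a sterol reductase, and the kinase Pmvk stood at -0.93 and -0.91. Dhcr7, which makes the last step to cholesterol, was the highest at 0.20. The study singled out this pathway on the same arrays, so its direction here is not independent evidence. By quantitative PCR, the paper also reported lower Sqle in individual mice and lower Hmgcs1 in the pooled RNA. Of the 17 enzymes, 9 had a lower log2 ratio than Scap, the lowest member.

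Other genes taken as SREBP-2 targets lay nearer to 0. Of 9 measured, 0 were past 1.5-fold either way, 8 were below 0 and the median log2 ratio was -0.14. Stard4, which moves cholesterol between membranes, had 4630 on EPA&DHA and 4994 on the control diet on its brightest probe set, and log2 ratios of -0.43 and -0.29 on the others. Npc1l1, the intestinal cholesterol transporter, had 14848 on EPA&DHA and 16494 on the control diet. Tmem97, a sterol-responsive membrane protein, had a log2 ratio of -0.14, and the lowest of the list was Aacs, a ligase that activates acetoacetate, at -0.58. The highest was the acetate-activating enzyme Acss2, at 0.09 on its brightest probe set and up to 0.90 on the others.

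Targets of SREBP-1 in fatty acid synthesis lay on both sides of the control. Of 16 measured genes, 3 were past 1.5-fold lower and 3 higher, and the median log2 ratio was -0.32. Acaca, the acetyl-CoA carboxylase of the cytosol, had 219 on EPA&DHA and 360 on the control diet. Scd1, the stearoyl-CoA desaturase, had 727 on EPA&DHA and 1105 on the control diet, but a dimmer probe set stood at 0.23. Pnpla3, a lipid droplet protein, had a log2 ratio of -0.64 with a local SD of 0.63. Fasn, the fatty acid synthase, and the elongase Elovl6 had log2 ratios of -0.33 and -0.31. The higher genes were the malic enzyme Me1 (1.14), the acyltransferase Gpam (0.64) and the mitochondrial carboxylase Acacb. Acacb had 237 on EPA&DHA and 36.3 on the control diet. It met the required mean signal of 50 only through the EPA&DHA array, so its ratio is not a well-measured fold and 2 higher genes are left without it. The paper reported Acacb as higher on EPA&DHA by quantitative PCR in individual mice.

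Genes that act on SREBPs between the ER and the nucleus stayed close to the control as lists. The COPII coat, which carries SCAP and SREBP, had 0 of 12 genes past 1.5-fold either way and a median log2 ratio of 0.01, from -0.45 for Sec31a, part of its outer cage, to 0.44 for Sec24b, a cargo adaptor. Sec24a and Sar1b, a cargo adaptor and the GTPase that starts the coat, stood at 0.33 and 0.19. Partners and turnover factors of nuclear SREBP had 0 of 15 genes past 1.5-fold and a median of -0.10. In this list the cofactor Nfya, which binds the CCAAT box, stood at -0.24, Fbxw7, the ligase that removes nuclear SREBP, at -0.18, the SREBP-1 repressor Lpin1 at 0.15, the acetyltransferase Ep300 at -0.42 and the import factor Kpnb1 at 0.51. A dimmer probe set had the opposite sign for Sec24b (-0.26) and Lpin1 (-0.54). For Kpnb1 the dimmer probe sets stood at 0.16, 0.02 and 0.41, all under the brightest.

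Among 11 measured ER ubiquitin ligases and partners, 1 was past 1.5-fold lower and 0 higher, with a median of -0.08. The gene past the threshold was Spring1, a cofactor of site-1 protease, with 81.3 on EPA&DHA and 127 on the control diet, its log2 ratio being -0.64 and its local SD 0.51. Another Spring1 probe set, under the required mean signal, went the other way with 96.7 on EPA&DHA and 10.4 on the control diet, so the direction of Spring1 is not settled. Rnf145, a ligase that targets SCAP, had 1365 on EPA&DHA and 1945 on the control diet, a log2 ratio of -0.51. Rnf139, another sterol-related ligase, stood at -0.15, and Ufd1, which helps to pull proteins out of the ER membrane, at 0.34. Dimmer probe sets of both went the other way, at 0.58 for Rnf139 and -0.04 for Ufd1.

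The site-1 and site-2 proteases also cut other proteins. Of 8 genes for such substrates, 1 was past 1.5-fold lower and 1 higher, with a median of -0.03. Atf6b, a sensor of ER stress, stood at -0.59 and Creb3l1, a relative of it, at 1.04, both with local SDs of at least 0.38. Atf6 had log2 ratios of -0.20, 0.32 and -0.57 on its probe sets, and Creb3l3, a factor of enterocytes and liver, stood at 0.13. Of 7 genes induced in ER stress, Pdia4, a disulfide isomerase, was past 1.5-fold lower (-0.67) and 0 were past it higher, with a median of -0.04. Hspa5, the main ER chaperone, had log2 ratios of -0.25, 0.12 and 0.38 on its probe sets, and the chaperone Hsp90b1 stood at 0.33 and, on a dimmer probe set, at -0.21.

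On the side of Mylip, LXR and its targets had 0 of 9 genes past 1.5-fold either way and a median log2 ratio of 0.03. Nr1h3, which encodes LXRα, stood at 0.05. Abca1, the LXR target that exports cholesterol, was the highest, with 8434 on EPA&DHA and 5643 on the control diet, a log2 ratio of 0.58 with a local SD of 0.24, and 0.27 and 0.71 on its other probe sets. Abcg5 and Abcg8, which return sterols to the lumen, both stood at -0.17. Genes that take part in the trafficking and breakdown of the LDL receptor had 1 of 12 past 1.5-fold higher and 0 lower, with a median of 0.13. The higher one was Ube2d2a, a ubiquitin-conjugating enzyme of the family that works with MYLIP, with 4511 on EPA&DHA and 2276 on the control diet on its brightest probe set, whereas its other kept probe sets had log2 ratios from -0.15 to 0.15. Ccdc93, of a complex that recycles the receptor, was the lowest at -0.28. Vldlr, another receptor that MYLIP acts on, had 237 on EPA&DHA and 174 on the control diet, with a local SD of 0.40. The gene of the LDL receptor was not analysed here.

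**Figure D3:**
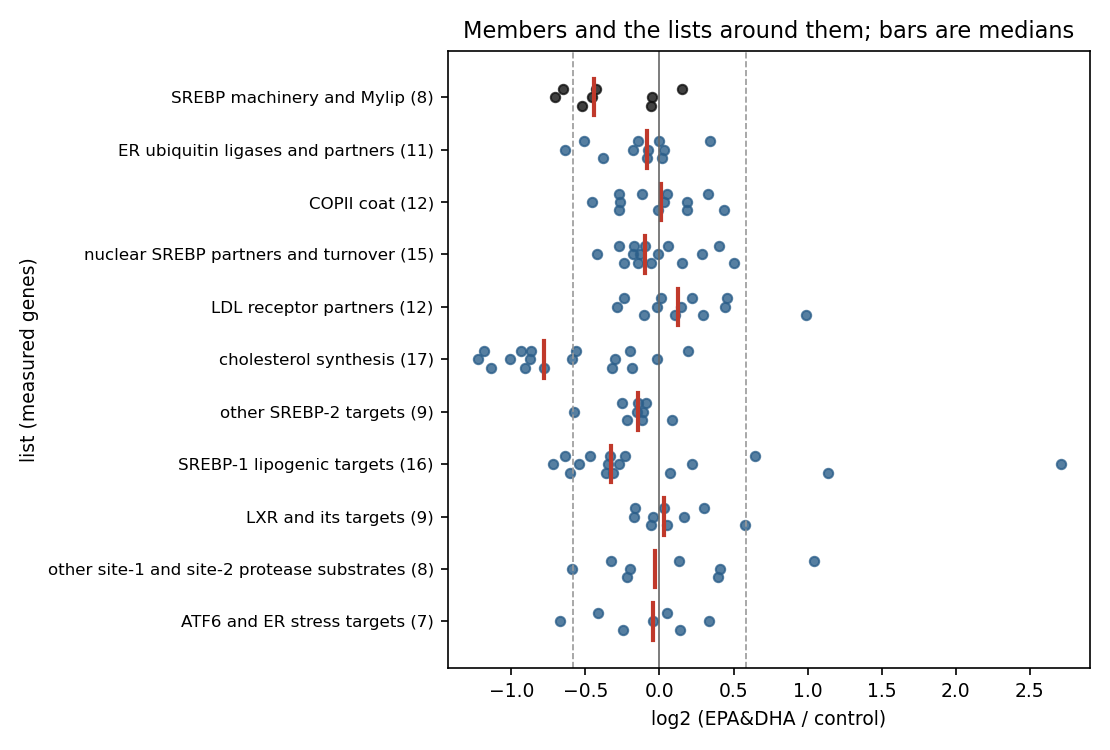
Log2 ratio of EPA&DHA over control (x axis) for each measured gene of the 8 members (black circles) and of the lists around them (blue circles), red bars for medians, Acacb at the far right of the lipogenic targets with a control signal under 50, gene numbers in brackets and dashed lines at 1.5-fold. The median was -0.44 for the members, -0.78 for cholesterol synthesis, -0.32 for the lipogenic targets and between -0.14 and 0.13 for the other lists.

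The labelled tissue was checked by marker genes, written from general knowledge. The 9 measured markers of absorptive enterocytes each had a signal of at least 21740 on EPA&DHA and 22390 on the control diet, with summed signals of 255321 on EPA&DHA and 285642 on the control diet and a median log2 ratio of -0.10. Of 8 measured markers of the exocrine pancreas, 8 were past 1.5-fold higher, with summed signals of 14495 on EPA&DHA and 4900 on the control diet and log2 ratios from 0.69 to 2.69. Of 5 B and plasma cell markers, 3 were past 1.5-fold lower, with a median of -0.65 and summed signals of 16673 on EPA&DHA and 14091 on the control diet. Most of both sums came from Jchain, the only one of them above 0, with 14860 on EPA&DHA and 11507 on the control diet. The 3 past 1.5-fold, Cd79a, Cd79b and Ms4a1, had local SDs from 0.38 to 0.40. A dimmer Ms4a1 probe set stood at -0.11. The fifth of the list, Ptprc, is expressed by other leukocytes too and stood at -0.41. Smooth muscle markers had summed signals of 1152 on EPA&DHA and 1332 on the control diet over 5 genes, and 2 adipocyte markers 1847 on EPA&DHA and 1578 on the control diet. Markers under the required mean signal are not in these counts. In pooled tissue RNA, fewer cells of a type and less RNA per cell cannot be told apart, and the part of these cell types in the ratios of the members was not tested. Because of the pooling, these arrays hold no measure of the spread between mice. The paper measured individual mice by quantitative PCR for a few genes, none of them a member.

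The ratios of the members were recomputed under 10 other ways of processing, some of which could not change them. Scap and Srebf2 were the 2 members past 1.5-fold lower in each of them, with log2 ratios from -0.71 to -0.65 and from -0.65 to -0.59. The value of -0.59 for Srebf2, with an offset of 50, was only just past the threshold. Srebf1 ranged from -0.52 to -0.48 and Insig1 from -0.43 to -0.40. Insig2 ranged from -0.46 to -0.28, where the last is the mean of its probe sets, and Mylip from -0.05 to -0.02. Mbtps1 ranged from -0.05 to 0.03 and so crossed 0, and Mbtps2 from 0.14 to 0.19.

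**Figure D4:**
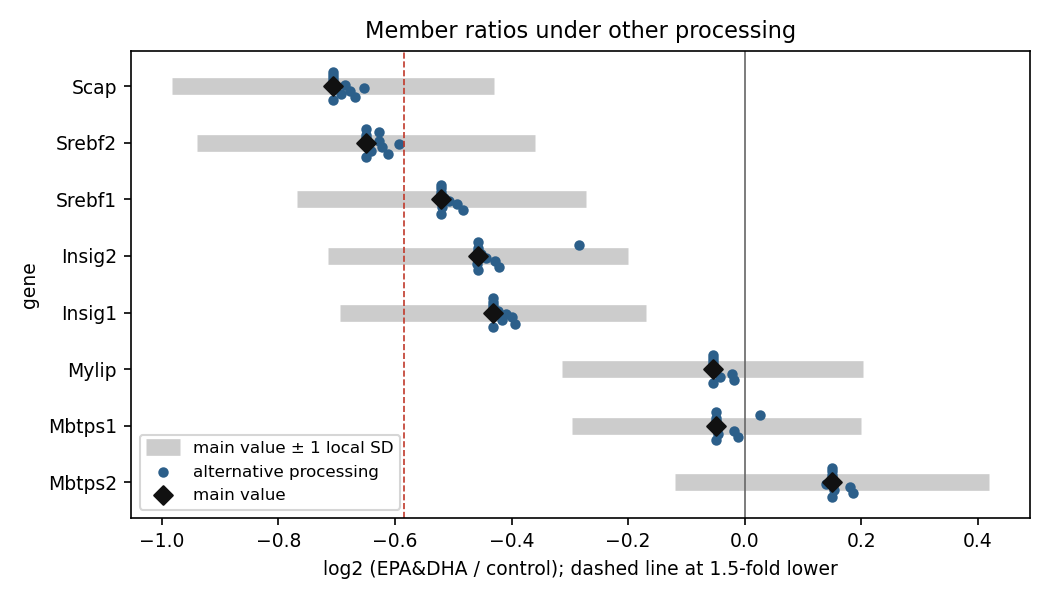
Log2 ratio of EPA&DHA over control (x axis) of each member in the main processing (diamonds) and under 10 alternatives (blue circles), with grey bars for the main value ± 1 local SD and a dashed line at 1.5-fold lower. Scap and Srebf2 stay left of the dashed line, Srebf1, Insig1 and Insig2 lie between it and 0, and Mylip, Mbtps1 and Mbtps2 lie near 0.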

How the data were processed

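Total RNA pooled per diet was labelled and hybridized by the authors to 1 Affymetrix MOE430_2 array per diet, and probe intensities were summarized with MAS 5.0 of unstated version. The deposited values are signal intensities on a linear scale, and the 2% trimmed mean of each array is 500, a scaling the authors applied. They were used as deposited, without a step back to single probes, and detection calls were not used.

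Of 45101 probe sets, 64 controls were set aside. Among these, the 3' probe set of Gapdh had 24693 on EPA&DHA and 33255 on the control diet. That of beta-actin had 37990 on EPA&DHA and 48012 on the control diet. Their 5' and middle probe sets were also lower on EPA&DHA. Gene names came from the platform annotation, updated by gene identifier to a RefSeq gene table (GRCm38.p6): 34945 probe sets named 1 gene, 932 several and 9160 none. Genes missing from it were not analysed here. Probe sets with a geometric mean signal of at least 50 were kept (24461). A gene took its brightest kept probe set that names it alone. Named genes were all members, genes taken as central to each list, the highest and lowest of each list and up to 6 past 1.5-fold each way. Each list's result is given once. The members and lists were chosen with earlier results of these data known. The alternatives covered scaling (none further, median centring, quantile normalization, loess with span 0.3), offsets (50, or 18.3, which is the 25th percentile of signals), no filter or a mean signal of at least 200, and the mean of all kept probe sets or the brightest without x or s suffix. The functions were tested on simulated data. The number of arrays limits the precision. Python 3.11.15, numpy 2.4.6, pandas 2.3.3, scipy 1.17.1, statsmodels 0.14.6 and matplotlib 3.10.9 were used.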

Additional observations from a re-analysis of the deposited data

How the results depend on the processing

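Over the 10 alternatives, the median log2 ratio of the 8 members stayed between -0.44 and -0.36, and under each 2 members were past 1.5-fold lower and 0 higher. No member moved by more than its local SD, although some of the alternatives could not change the members' values. The median of the cholesterol synthesis genes was -0.61 with an offset of 50, -0.71 with the smaller offset, -0.60 with averaged probe sets and -0.59 without probe sets that may bind related sequences, against -0.78 in the main processing. The median of the lipogenic targets was -0.23 with averaged probe sets, against -0.32. That of the genes handling the LDL receptor ranged from 0.10 to 0.16. Genes past 1.5-fold lower made up 8.02% of all genes in the main processing, 19.5% with no filter, 4.11% with an offset of 50 and 3.03% at a mean signal of at least 200. Genes past 1.5-fold higher made up 6.24% in the main processing, 14.5% with no filter, 3.51% with an offset of 50 and 3.82% at a mean signal of at least 200. No paired analysis was possible because each diet had 1 array. For the same reason no array could be left out.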
